A study of Mus musculus with 4 samples.

Results

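Stimulated muscle 5 h after acute EPS was compared with stimulated muscle at 0 min after it. The material was 3D engineered muscle of the mouse, a skeletal muscle tissue grown and assembled in culture, and the stimulus was 30 min of EPS, an electrical stimulation that makes cultured muscle contract (the labels spell it electrical plus stimulation). The comparison set the array labelled 5 h after EPS against the array labelled 0 min after EPS, which are 2 of the 4 arrays of the study. The other 2 arrays held tissue with no acute EPS, the negative control, at 0 min and at 5 h, and are used below to show the same 5 h without stimulation. Each group had 1 array, so no test between groups was possible and no spread between tissues is known. The sources used here do not give the cells from which the tissue was built, how many tissues went into an array, or the strength of the stimulus, and the labelling protocol names leukocytes where the titles name engineered muscle.

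The measured genes were chosen by brightness alone. A probe entered when the scanner software marked it well above background on both EPS arrays, and 18463 of 31884 gene names on the array passed. The level of a gene is the log2 of its processed signal minus the 75th percentile of its array, and a difference is the level at 5 h minus the level at 0 min. In place of a test, a difference of at least 2-fold (1 on the log2 scale) is counted. Of the 18463 genes, 443 (2.40%) were at least 2-fold higher at 5 h and 674 (3.65%) at least 2-fold lower, 6.05% in all. The counts of called list members given below are to be read against these shares. The split between directions depends on how the arrays are scaled: 39.7% of the called genes were higher here, 50.5% after quantile normalization and 64.0% when each array was centred on its median, which moves the median difference of all genes from -0.08 to 0.10.

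Contracting muscle first switches on immediate early genes, transcription factors such as Fos and Egr1 whose transcripts appear within minutes and are short-lived. In the hours that follow, muscle cells are known to release cytokines and growth factors, among them interleukin-6, and to adjust genes of redox defence, protein folding and fuel use. The arrays without EPS are given beside the leading genes of each group.

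All 10 skeletal muscle markers examined were well above background on every array, among them the embryonic myosin Myh3, the skeletal actin Acta1 and the myogenic factor Myog, and none differed by 2-fold between the EPS arrays. The 75th percentile of the signal ran from 1093 to 1491.9 over the 4 arrays, lowest at 0 min and highest at 5 h after EPS, and 19160 to 19415 genes per array were well above background. No spot was saturated. Among 272 probes printed 10 times on each array and measured after EPS, the standard deviation of the time difference between spots was 0.08 at the median and 0.29 at the 95th percentile. For the 198 of these with a level of -2 or more the 95th percentile was 0.11, and for the 74 dimmer ones 0.45. Calls were more frequent among dim genes: 10.3% of genes in the dimmest of 4 equal groups by level reached 2-fold, against 2.17% in the brightest. Of 142 called genes with several measured probes, 134 had all of them on the same side of 0, and 77 had all of them at least 2-fold.

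**Figure D1:**
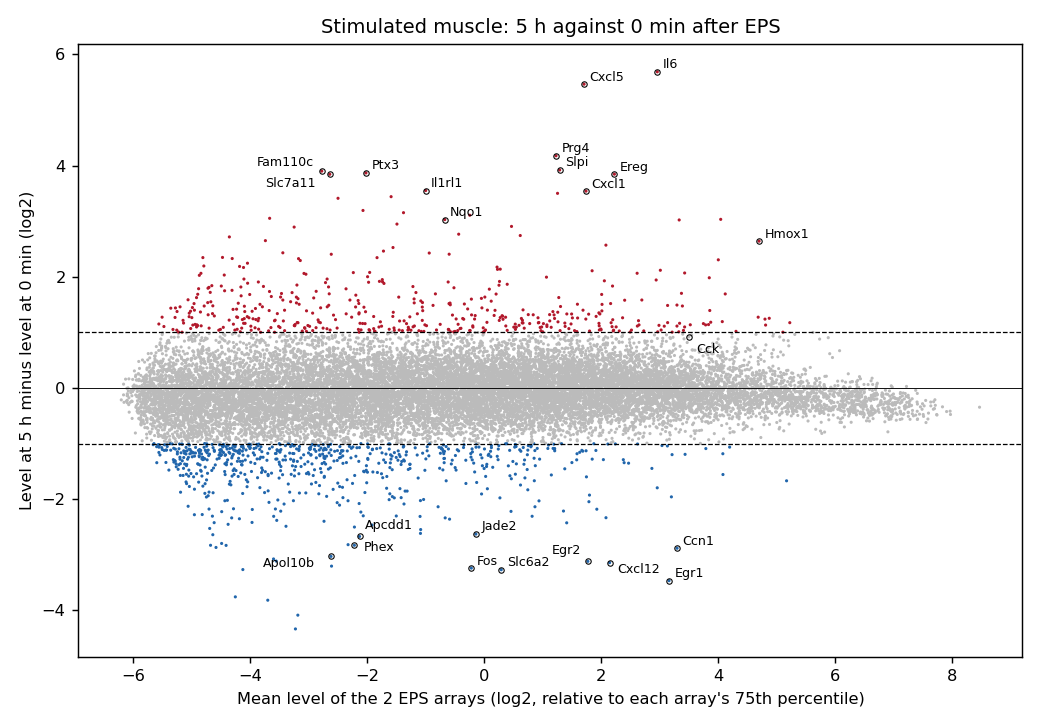
Each point is 1 of the 18463 measured genes; the horizontal axis is the mean level on both EPS arrays (log2, relative to the 75th percentile of each array) and the vertical axis the level at 5 h minus that at 0 min (log2). Dashed lines mark 2-fold; red points are the 443 genes higher, blue points the 674 lower, and Il6 stands highest at 5.69.

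Interleukin-6 (Il6), the best known cytokine of contracting muscle, had the largest upward difference among the 18463 genes measured on both EPS arrays. Il6 had levels of -1.13 at 0 min and 4.82 at 5 h without EPS, and of 0.12 and 5.80 with EPS, a difference of 5.69 or 51.5-fold after EPS (probe at chr5:30346367-30346426, build mm9). It was thus high on both 5 h arrays and low on both 0 min arrays, and the difference without EPS was 5.95. Cxcl5, a chemokine that draws neutrophils, had levels of -1.31 and 2.48 without EPS and -1.02 and 4.44 with EPS, a 44.2-fold difference after EPS and 13.8-fold without. The 2 arrays at 0 min were close for Cxcl5, while the 5 h array after EPS stood above the other. Lubricin (Prg4), a secreted joint lubricant, was 18.1-fold higher and the protease inhibitor Slpi 15.2-fold (10.1-fold and 10.4-fold without EPS). Fam110c was 14.9-fold higher, the pentraxin Ptx3 14.6-fold, the growth factor epiregulin (Ereg) 14.4-fold and the cystine transporter Slc7a11 14.4-fold. Without EPS the differences were larger for Fam110c (16.4-fold), Ptx3 (18.4-fold) and Slc7a11 (19.9-fold) and smaller for Ereg (9.23-fold). Fam110c, Ptx3 and Slc7a11 were dim at 0 min after EPS, with levels of -4.73, -3.95 and -4.56. Pleckstrin (Plek), a substrate of protein kinase C, was 11.3-fold higher and the protein C receptor Procr 10.9-fold (5.38-fold and 6.98-fold without EPS).

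The promoters of 6 genes are shown so that motifs of the transcription factors described further on can be read there. They were taken in order of upward difference among the named genes matched in the RefSeq promoter table, without regard to motifs; Cxcl5, Prg4 and Ereg were not matched. Each is the 250 bases before the RefSeq start on assembly GRCm38.p6, written 5′ to 3′ on the strand of the gene. Capitals mark letters that match a searched motif on either strand. The motifs were AP-1 (TGANTCA), the site of Fos and Jun; C/EBP (TTGCNNAA), the site of Cebpb and Cebpd; CRE (TGACGTCA), the site of CREB; ARE (TGACNNNGC), the site of NRF2; the kappaB consensus; and the CArG box of Srf. TATAAA was searched on the sense strand alone. No searched motifs overlap in the capitals printed.
Il6 (chr5:30012864-30013113, plus strand): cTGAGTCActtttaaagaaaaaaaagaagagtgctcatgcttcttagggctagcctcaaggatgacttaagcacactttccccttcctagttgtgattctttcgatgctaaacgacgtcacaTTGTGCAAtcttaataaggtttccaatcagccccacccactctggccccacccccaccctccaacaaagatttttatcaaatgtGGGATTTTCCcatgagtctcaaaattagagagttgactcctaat
Slpi (chr2:164356508-164356757, minus strand): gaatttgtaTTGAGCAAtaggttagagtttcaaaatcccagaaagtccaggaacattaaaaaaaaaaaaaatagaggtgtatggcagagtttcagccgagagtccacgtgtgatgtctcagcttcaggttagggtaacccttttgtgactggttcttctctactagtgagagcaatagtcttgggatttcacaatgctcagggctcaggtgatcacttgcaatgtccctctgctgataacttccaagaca
Fam110c (chr12:31073718-31073967, plus strand): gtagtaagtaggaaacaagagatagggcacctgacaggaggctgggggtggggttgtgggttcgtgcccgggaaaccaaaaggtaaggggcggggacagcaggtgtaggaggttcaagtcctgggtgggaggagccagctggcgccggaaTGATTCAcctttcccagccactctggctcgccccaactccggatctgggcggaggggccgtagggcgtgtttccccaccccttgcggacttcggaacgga
Ptx3 (chr3:66219637-66219886, plus strand): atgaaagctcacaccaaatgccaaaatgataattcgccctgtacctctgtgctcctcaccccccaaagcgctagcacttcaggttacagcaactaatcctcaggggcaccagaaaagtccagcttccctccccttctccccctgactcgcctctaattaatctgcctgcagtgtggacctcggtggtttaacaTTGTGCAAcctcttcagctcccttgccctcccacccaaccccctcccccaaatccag
Slc7a11 (chr3:50443614-50443863, minus strand): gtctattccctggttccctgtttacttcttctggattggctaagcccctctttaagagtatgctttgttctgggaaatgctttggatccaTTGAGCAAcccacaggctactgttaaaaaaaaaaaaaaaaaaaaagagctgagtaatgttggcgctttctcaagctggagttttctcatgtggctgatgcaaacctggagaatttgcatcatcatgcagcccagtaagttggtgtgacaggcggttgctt
Il1rl1 (chr1:40429320-40429569, plus strand): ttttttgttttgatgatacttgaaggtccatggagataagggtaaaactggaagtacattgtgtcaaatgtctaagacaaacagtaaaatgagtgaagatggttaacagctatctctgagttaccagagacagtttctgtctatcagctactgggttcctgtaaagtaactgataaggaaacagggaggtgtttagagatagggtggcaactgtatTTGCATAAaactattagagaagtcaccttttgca

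The Il6 promoter held an AP-1 match 249 bases before the start, a C/EBP match at 128 and a kappaB match at 44. A C/EBP match lay 241 bases before the start of Slpi, 57 before Ptx3, 160 before Slc7a11 and 34 before Il1rl1, and an AP-1 match 100 bases before Fam110c. Promoters were matched for 42 of the 61 genes at least 4-fold higher at 5 h after EPS. Over these 42, 31.0% held the C/EBP letters and 26.2% the AP-1 letters. Over the 45 promoters of genes at least 4-fold lower the shares were 13.3% and 4.4%, over 11070 promoters of measured genes 7.9% and 4.7%, and over all 27025 promoters 9.6% and 6.9%. At 2-fold the contrast was smaller. The C/EBP letters stood in 10.1% of 237 promoters of genes higher and 9.3% of 409 of genes lower, the AP-1 letters in 9.7% and 5.1%. TATAAA stood in 21.4% of the promoters of genes at least 4-fold higher, 9.7% of those at least 2-fold higher and 4.8% of those measured. The kappaB letters stood in 7.1%, 7.6% and 8.6%, in the same order. The ARE letters stood in 16.7% of promoters at least 4-fold higher, 15.6% of those at least 4-fold lower and 11.8% of those measured. For the same 3 sets the CArG shares were 2.4%, 6.7% and 1.3%, and the CRE shares 4.8%, 0.0% and 2.7%. A match is a stretch of letters and no evidence of binding.

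Of the 16 measured members of the interleukin-6 family with its receptors and feedback inhibitors, 4 were at least 2-fold higher at 5 h after EPS and 2 lower, with a median difference of 0.30 (0.34 without EPS, and -0.08 over all genes). Upward calls were more frequent without EPS, with 7 of 16 higher and 1 lower. The 4 genes called higher after EPS were ligands, while the ligand cardiotrophin 1 (Ctf1) differed by -0.84. Leukaemia inhibitory factor (Lif), a muscle-derived cytokine that acts on muscle stem cells, had levels of -4.32 and -3.26 without EPS and -4.20 and -0.79 with EPS, a 10.6-fold difference after EPS. Interleukin-11 (Il11) had levels of -3.35 and -2.32 without EPS and -2.96 and 0.20 with EPS, an 8.90-fold difference. For both ligands the 5 h array after EPS stood alone at the top, and the time differences with EPS exceeded those without by 2.35 and 2.13. Clcf1, another ligand of the family, was 4.51-fold higher. The receptor Lifr was 2.10-fold lower (-0.89 on the log2 scale when centred on the median and -0.64 as the mean of its probes), and the feedback inhibitor Socs1 2.26-fold lower (-0.99 when centred on the median). Socs3, the inhibitor most closely tied to interleukin-6 receptors, differed by 0.09 after EPS and by 1.35 without.

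Among 18 measured chemokines, 3 were at least 2-fold higher and 1 lower (2.40% and 3.65% over all genes). Cxcl1, like Cxcl5 a neutrophil attractant, had levels of -0.98 and 1.71 without EPS and -0.03 and 3.51 with EPS, an 11.6-fold difference. The monocyte chemokine Ccl2 had levels of 1.01 and 1.18 without EPS and 1.80 and 2.82 with EPS, 2.04-fold higher (0.99 on the log2 scale after quantile normalization). Its probe is printed 10 times, and the spots had a standard deviation of 0.08. Cxcl12, which holds stem cells and leukocytes in their niche, went the other way, from 3.63 to 1.62 without EPS and from 3.72 to 0.57 with EPS, 8.83-fold lower. Among NF-kB subunits and feedback targets 2 of 19 were higher, Bcl3 (2.23-fold) and Cd44 (2.03-fold, with its probes disagreeing and a mean of 0.55), and the interferon factor Irf1 was 2.20-fold lower (-0.96 when centred on the median). The inhibitor gene Nfkbia differed by -0.81.

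Acute phase and alarm genes gave 5 of 19 at least 2-fold higher, none lower and a median of -0.17 (0.01 when centred on the median), so a few members stood far from the rest. Without EPS 4 of 19 were higher and 1 lower. The interleukin-33 receptor Il1rl1 had levels of -2.84 and -1.68 without EPS and -2.77 and 0.78 with EPS, an 11.7-fold difference. S100a8, an alarm protein abundant in neutrophils, had levels of -3.81 and -2.68 without EPS and -3.67 and -0.47 with EPS, 9.15-fold higher, and serum amyloid Saa3 was 3.78-fold higher. As with Lif and Il11, the 5 h array after EPS stood alone at the top for all 3. Another 3 genes were seen above background at 5 h after EPS and not at 0 min, which gives a lower bound. Serpinb2, plasminogen activator inhibitor 2, was at least 57.5-fold higher, and the C-type lectins Clec4e and Clec4d at least 45.9-fold and 22-fold. Without EPS these too were above background at 5 h alone, Serpinb2 with a level of -4.75 against -0.36 after EPS. In all, 701 genes were above background at 5 h alone after EPS, 196 of them with a bound of at least 2-fold, and 943 at 0 min alone, 408 of them with such a bound. In the plasminogen system the urokinase receptor Plaur was 5.93-fold higher, the single call among 10 members after EPS. Of the same list 2 were higher and 1 lower without EPS.

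Leukocyte markers are given here because several of these genes are also expressed by leukocytes. Of 12 listed, 6 were measured on both EPS arrays. The pan-leukocyte marker Ptprc stayed at background on all 4 arrays, as did Lyz2, Cd52 and Laptm5, and Adgre1 was above it on 2. Cd14, the lipopolysaccharide co-receptor, was 3.98-fold higher, and the other 5 differed by -0.77 to 0.16. The summed signal of the list, not scaled between arrays, was 12869.9 and 12187.9 without EPS and 9637.5 and 15927.5 with EPS, and its part in the cytokine values was not tested. In whole tissue, fewer cells of a type and less RNA per cell cannot be told apart.

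Growth factors of the EGF family and prostaglandin synthesis shared this direction at their leading members. Of 10 EGF family genes, 4 were higher and none lower, with a median of 0.53 (0.13 without EPS). Epiregulin had levels of -0.27 and 2.93 without EPS and 0.30 and 4.15 with EPS. Amphiregulin (Areg) was 7.71-fold higher, neuregulin 1 (Nrg1) 2.23-fold, and the receptor Egfr 2.28-fold (0.61 on the log2 scale as the mean of its probes). In the prostaglandin list, the inducible cyclooxygenase Ptgs2 had levels of 0.59 and 3.70 without EPS and 1.82 and 4.85 with EPS, 8.12-fold higher with a standard deviation of 0.06 over 10 spots. The phospholipase Pla2g4a, which frees arachidonic acid, was 6.69-fold higher, the prostacyclin receptor Ptgir 3.44-fold and Ptgs1 2.27-fold. The prostaglandin F receptor Ptgfr was 4.03-fold lower, the degrading enzyme Hpgd 3.90-fold and the thromboxane receptor Tbxa2r 2.25-fold (-0.69 on the log2 scale under normexp). Hpgd and Tbxa2r were both dim, with levels of -5.73 and -5.765 at 5 h after EPS. The prostaglandin list thus had 4 higher and 3 lower of 16.

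**Figure D2:**
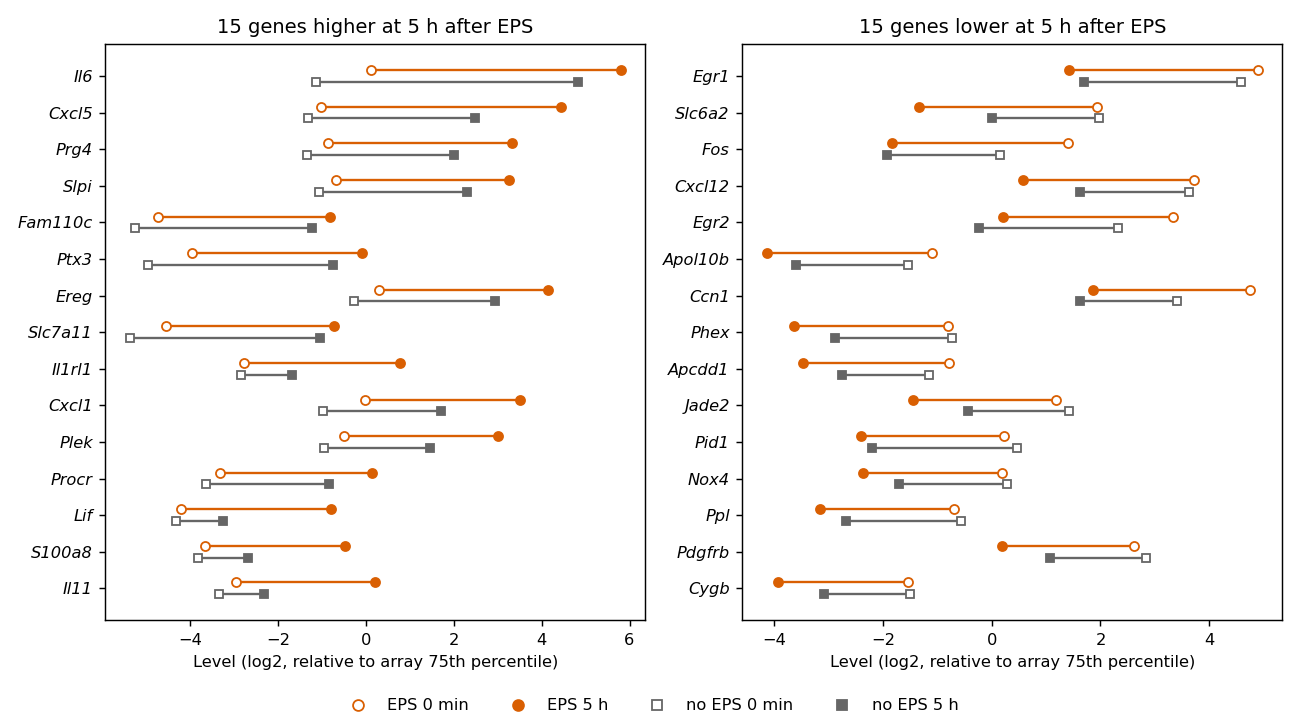
Levels (log2, relative to the 75th percentile of each array) of the 15 named genes farthest from 0 in either direction after EPS; open symbols are 0 min, filled symbols 5 h, circles with EPS and squares without, 1 array each. Each of the 30 genes lies on the same side at 5 h with and without EPS; Il1rl1, Lif, S100a8 and Il11 have the longest EPS lines relative to those without.

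Activin and BMP signals differed member by member. Inhba, the subunit of activin A, had levels of 1.86 and 3.80 without EPS and 2.53 and 5.56 with EPS, 8.19-fold higher, while the related subunit Inhbb was 3.48-fold lower. Tgif1, a repressor of Smad targets, was 2.02-fold higher and the co-receptor Tgfbr3 2.69-fold lower, which makes 2 and 2 of 20. Myostatin (Mstn) stayed at background on all 4. Bmp4 was 3.03-fold lower and the BMP targets Smad6 and Id3 4.18-fold and 4.54-fold lower, while the BMP antagonist Grem1 differed by 0.96. Among insulin-like growth factor genes, the binding protein Igfbp3 was 5.30-fold higher, Igf1 2.08-fold lower (-0.88 when centred on the median) and the receptor substrate Irs1 2.58-fold lower. All of these calls pointed the same way without EPS, where Inhba differed by 1.94, Inhbb by -1.04 and Igfbp3 by 1.66. In the list of calcium and cAMP response genes, 3 of 19 were higher and 3 lower. Besides Inhba, the repressor Crem was 2.82-fold higher, and so was Rgs16, a brake on G protein signalling, at 2.32-fold. Rgs16 had levels of -3.01 and -3.13 without EPS and -1.67 and -0.45 with EPS, both EPS arrays lying above both others. The kinase Camk1g was 2.50-fold lower.

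Targets of NRF2, the transcription factor of the oxidative stress response, formed the list with most upward calls. Of 27 measured, 10 were at least 2-fold higher at 5 h after EPS and none lower, with a median of 0.63. Haem oxygenase 1 (Hmox1) had levels of 3.10 and 6.40 without EPS and 3.38 and 6.02 with EPS, 6.24-fold higher. The quinone reductase Nqo1 had levels of -1.88 and 1.15 without EPS and -2.19 and 0.84 with EPS, 8.16-fold higher. Both genes were high on both 5 h arrays. The 2 subunits of the glutathione-synthesising ligase, Gclm and Gclc, were 5.38-fold and 2.34-fold higher, sulfiredoxin (Srxn1) 4.94-fold, thioredoxin reductase (Txnrd1) 3.23-fold, G6pdx, the entry enzyme of the pentose phosphate pathway, 2.61-fold, the glutathione transferase Gsta4 2.40-fold and glutathione reductase (Gsr) 2.14-fold. Without EPS 11 of 27 were called and the median was 0.61. The time difference was smaller after EPS than without for 23 of 27 members, with a median gap of -0.31, beside 10523 of 18099 genes and a median gap of -0.045 over all genes. The metallothioneins Mt1, Mt2 and Mt3 differed by -0.40, -0.09 and -0.45 after EPS. The ARE letters stood in 26.1% of 23 promoters of this list and in 11.8% of promoters of measured genes. They were not particular to it: the kappaB letters stood in 26.1% against 8.6%, and the AP-1 letters in 21.7% against 4.7%. The ARE letters also stood in 24.1% of 29 promoters of the immediate early list.

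Chaperones of the endoplasmic reticulum, which fold secreted proteins, differed from the redox genes in how they compared with unstimulated tissue. Of 25 measured, 23 lay above 0 after EPS (7846 of 18463 over all genes) with a median of 0.54, and 14 lay above 0 without EPS with a median of 0.03. Creld2, a protein of the endoplasmic reticulum, had levels of 3.02 and 2.93 without EPS and 3.16 and 4.55 with EPS, 2.63-fold higher, with a standard deviation of 0.07 over 10 spots. Manf, a secreted stress protein, had levels of 2.06 and 2.05 without EPS and 2.08 and 3.21 with EPS, 2.19-fold higher. For both the 5 h array after EPS was high and the other 3 lay close together. Hyou1 was 2.72-fold higher at a dim level (0.91 on the log2 scale under normexp). Below 2-fold, the central chaperone BiP (Hspa5) differed by 0.90, Dnajb9 by 0.93 and Dnajc3 by 0.80. The gap between the time differences with and without EPS was positive for 23 of 25 members (7576 of 18099 over all genes), with a median of 0.38, and at least 2-fold for Hyou1, Creld2 and Manf, or 3 of 25 (1.0% of 18099 genes measured on all 4 arrays were called in that direction, 0.995% in the other). Such a gap was not particular to the chaperones. It was positive for 25 of 27 cell cycle genes (median 0.48) and 8 of 10 EGF family genes (median 0.53). Targets of ATF4, the factor of the integrated stress response, gave 4 of 26 higher: Slc7a11, cystathionine gamma-lyase (Cth, 2.62-fold), the secreted stanniocalcin 2 (Stc2, 2.52-fold, 0.97 on the log2 scale under normexp) and the serine synthesis enzyme Psph (2.01-fold, 0.98 after quantile normalization). Their median was 0.30 after EPS and 0.34 without.

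**Figure D3:**
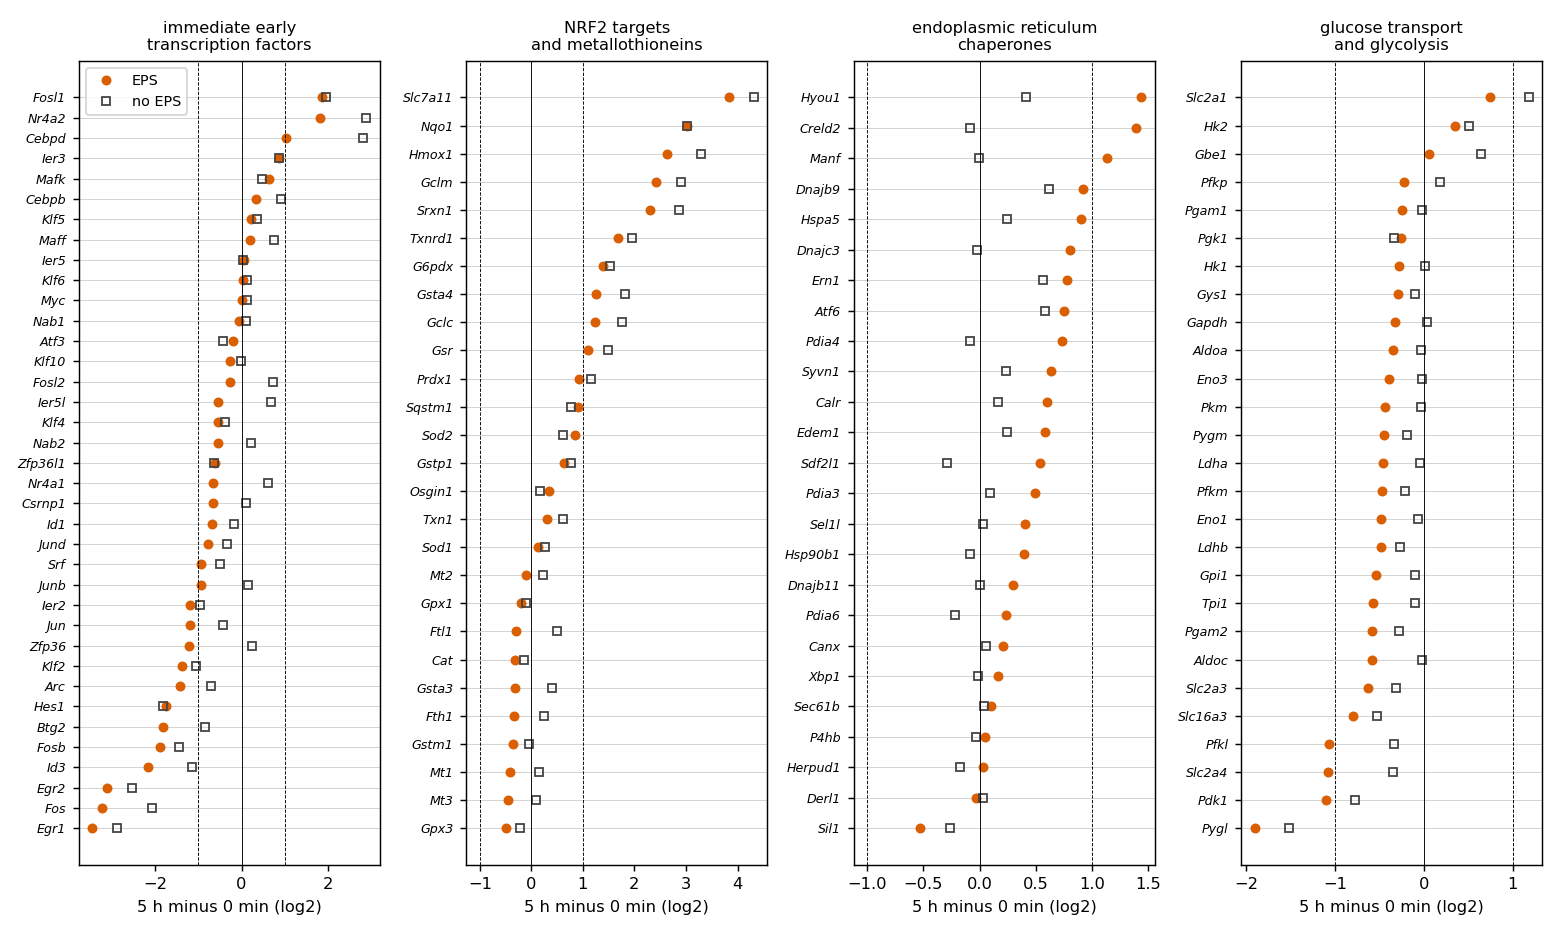
Each panel gives the measured members of 1 list, with the 5 h minus 0 min difference (log2) after EPS as orange circles and without EPS as open squares; dashed lines mark 2-fold. Endoplasmic reticulum chaperones and glycolysis genes show circles set apart from squares (medians 0.54 against 0.03 and -0.47 against -0.10), while the NRF2 medians are 0.63 and 0.61.

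The list of immediate early genes was the most downward of the lists of 10 or more measured genes, by median. It holds transcription factors and other genes such as Arc and Zfp36. Of 37 members, 12 were at least 2-fold lower at 5 h after EPS and 3 higher. The median was -0.62, against 0.05 without EPS with 7 lower and 3 higher. Egr1 had levels of 4.58 and 1.70 without EPS and 4.89 and 1.43 with EPS, 11.1-fold lower. Fos had levels of 0.16 and -1.93 without EPS and 1.40 and -1.84 with EPS, 9.46-fold lower, with a standard deviation of 0.08 over 10 spots. The 5 h arrays were close for Fos, and the 0 min array after EPS stood above that without. Egr2 was 8.69-fold lower, Id3 4.54-fold, Fosb 3.75-fold, Btg2 3.52-fold, Hes1 3.38-fold, Arc 2.70-fold, Klf2 2.59-fold, Zfp36 2.34-fold, Jun 2.30-fold and Ier2 2.28-fold. Zfp36, which encodes an RNA-decay factor, was dim and differed by -0.81 under normexp. Arc, an activity-induced gene, had levels of -1.90 and -2.61 without EPS and 0.22 and -1.21 with EPS, so both EPS arrays lay above both others. Its level at 5 h after EPS was still above that of unstimulated tissue at either time.

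The exceptions were the AP-1 member Fosl1 (3.64-fold higher), the orphan receptor Nr4a2 (3.56-fold) and the C/EBP factor Cebpd (2.05-fold). Nr4a2 had levels of -0.74 and 2.17 without EPS and 1.28 and 3.11 with EPS. Cebpd had levels of 2.11 and 4.93 without EPS and 2.89 and 3.92 with EPS, so its highest level was in unstimulated tissue at 5 h, and its time difference was 1.78 smaller after EPS than without. The gap between time differences was negative for 31 of 37 members of the list (10523 of 18099 over all genes) and at least 2-fold for 8. Of 16 feedback genes of the MAP kinase pathway, 5 were lower and 1 higher. The phosphatases Dusp2, Dusp1 and Dusp8 were 4.64-fold, 2.77-fold and 2.45-fold lower, the EGF receptor inhibitor Errfi1 2.27-fold and Spry1 2.19-fold (-0.95 when centred on the median), while Dusp4 was 2.21-fold higher. Ccn1, a matricellular gene induced by growth signals, had levels of 3.40 and 1.62 without EPS and 4.74 and 1.86 with EPS, 7.38-fold lower. Its relative Ccn2 was 2.94-fold lower. Among cytosolic heat shock proteins 1 of 28 was called, the co-chaperone Dnajb1, with levels of 4.21 and 4.28 without EPS and 6.01 and 4.33 with EPS, 3.19-fold lower. Its 0 min array after EPS stood alone. The inducible Hspa1a differed by -0.53 and kept a higher level at 5 h after EPS (-0.76) than without (-2.81). The median of that list was -0.07, and 0.11 when centred on the median.

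Other genes lay far below 0. The noradrenaline transporter Slc6a2 had levels of 1.97 and 0.00 without EPS and 1.93 and -1.34 with EPS, 9.65-fold lower. The PDGF receptor Pdgfrb, a receptor of mesenchymal cells, had levels of 2.84 and 1.07 without EPS and 2.62 and 0.20 with EPS, 5.38-fold lower. For both genes the 0 min arrays were close and the 5 h array after EPS was lowest. Apol10b was 8.18-fold lower, the phosphate-regulating peptidase Phex 7.12-fold, the Wnt inhibitor Apcdd1 6.37-fold, Jade2 6.19-fold, Pid1, an inhibitor of insulin signalling, 6.14-fold, the NADPH oxidase Nox4 5.85-fold, periplakin (Ppl) 5.52-fold and cytoglobin (Cygb) 5.27-fold. Ranbp3l gave the largest downward difference among genes measured on both EPS arrays, 20.2-fold, at a mean level below the lower quartile of measured genes. Among the 943 genes seen above background at 0 min and not at 5 h were Sectm1a, 21.3-fold lower, Insc, at least 16.2-fold, and Klra22, at least 10.6-fold. The value for Sectm1a rests on its own dim level at 5 h after EPS, -6.33. The lowest level marked well above background on that array was -6.42, so the value is no firm lower bound. Klra22 was above background on the 0 min EPS array alone, with a level of -3.01 there and -8.16 and -8.35 on the arrays without EPS.

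Genes of fuel use lay on the low side at 5 h. In glucose transport and glycolysis 24 of 27 members were below 0 after EPS (10617 of 18463 over all genes), with a median of -0.47 (-0.10 without EPS, and -0.28 when centred on the median), 4 were at least 2-fold lower and none higher. The insulin-regulated transporter Slc2a4 had levels of -0.64 and -0.99 without EPS and -0.19 and -1.27 with EPS, 2.11-fold lower, with a standard deviation of 0.09 over 10 spots. It was highest at 0 min after EPS and lowest at 5 h after EPS. The phosphorylase Pygl was 3.75-fold lower, the pyruvate dehydrogenase kinase Pdk1 2.14-fold and the phosphofructokinase Pfkl 2.09-fold. When centred on the median, Slc2a4, Pdk1 and Pfkl were under 2-fold, at -0.90, -0.92 and -0.88. The basal transporter Slc2a1 differed by 0.75, and 26 of 27 members had a lower time difference after EPS than without, beside 10523 of 18099 over all genes. That count was taken under 1 scaling alone, and the comparison with all genes was not matched for level. After quantile normalization the median of the list after EPS was -0.32. Its summed signal, not scaled between arrays, was 1.85e+06 and 1.69e+06 without EPS and 1.66e+06 and 1.74e+06 with EPS. The part of scaling in this gap was not tested. Ppargc1a, which encodes the coactivator of mitochondrial biogenesis PGC-1 alpha, had levels of -1.0 and -2.81 without EPS and -1.53 and -3.32 with EPS, 3.45-fold lower, so it was low on both 5 h arrays. Its list of 30 also held the fatty acid sensor Ppard, 2.57-fold higher, and the orphan receptor Esrrg, 2.28-fold lower and dim (-0.63 under normexp). None of 30 oxidative phosphorylation genes was called, and their median of -0.15 lay at 0.03 when centred on the median, beside 0.10 for all genes.

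Hypoxia and the peptide hormone cholecystokinin (Cck) are named in the title of the series. Of 34 hypoxia and HIF targets, 2 were higher, Hmox1 and Stc2, which also belong to the redox and ATF4 lists, and the collagen prolyl hydroxylase P4ha2 was 2.01-fold lower (-0.83 when centred on the median). Over all genes 2.40% were higher and 3.65% lower. Without EPS 4 of the 34 were higher and none lower, with a median of 0.06. The gap between time differences was negative for 24 of 34, beside 10523 of 18099 over all genes. The mitophagy gene Bnip3 differed by -0.78 after EPS and by -0.12 without. The list median after EPS, -0.17, turned to 0.02 when centred on the median. Cck had levels of 3.37 and 3.12 without EPS and 3.04 and 3.96 with EPS, so it was lowest at 0 min and highest at 5 h after EPS (probe at chr9:121398943-121399002, build mm9). Its difference of 0.92 after EPS, 1.89-fold, lay below the 2-fold rule and reached 1.10 when centred on the median, while the difference without EPS was -0.25. Its receptor genes Cckar and Cckbr stayed at background on all 4 arrays. Among neuropeptides and granule proteins, Cck included, 13 of 32 were measured, and 5 were higher and none lower. The receptor Npy1r had levels of -2.28 and 1.74 without EPS and -0.98 and 1.92 with EPS, 7.50-fold higher. The enkephalin precursor Penk had levels of -4.11 and -4.07 without EPS and -4.03 and -2.39 with EPS, 3.10-fold higher. Secretogranin Scg2 (4.74-fold), Npy (3.44-fold) and Vgf (2.01-fold) were dim and not well above background on at least 1 array without EPS. Under normexp the log2 differences of Penk, Scg2, Npy and Vgf were 0.98, 0.94, 0.49 and 0.11.

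Contractile and matrix genes lay slightly low with few calls. None of 34 sarcomere genes reached 2-fold, 32 were below 0 (10617 of 18463 over all genes) and the median was -0.40 (-0.18 without EPS, and -0.22 when centred on the median), from the telethonin gene Tcap at -0.89 to the tropomyosin Tpm3 at 0.34. Excitation-contraction coupling genes (median -0.28 of 21) and the stretch-responsive muscle ankyrin and Xin genes (-0.28 of 13) held no call, and the acetylcholine receptor list 1 of 14, Colq, which anchors acetylcholinesterase, 2.18-fold lower (-0.94 when centred on the median). None of 23 muscle ubiquitin ligase and FoxO genes was called, with the ligase Trim63 at -0.82. The myogenic factors Myod1 and Myog differed by 0.12 and 0.04, and Myf6 was 2.08-fold lower (-0.87 when centred on the median). Of 29 collagen and matrix genes, 24 were below 0 with a median of -0.43, and the hyaluronan synthase Has1 was 2.86-fold higher. Their proteases went partly the other way: the collagenase Mmp13 was 5.02-fold higher at a dim level, stromelysin (Mmp3) 2.33-fold, the inhibitor Timp1 2.26-fold and the aggrecanase Adamts4 2.15-fold, while Adamts5 was 2.73-fold lower. Fibroblast markers had a median of -0.59 after EPS and -0.18 without, with 1 of 10 above 0 and the collagen Col1a1 at -0.80. Their summed signal, not scaled between arrays, was 586260 and 513275 without EPS and 520431 and 507902 with EPS. Thy1 and Tcf21 stayed at background on all 4 arrays. The part of fibroblast content in the matrix values was not tested. Of other cell types, 1 of 8 adipocyte, 3 of 9 endothelial, 7 of 12 neuron and Schwann cell and 8 of 12 bone and cartilage markers were measured after EPS. The single call among them was the tubulin Tubb3, 2.08-fold higher (0.81 on the log2 scale under normexp).

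Clock, cell cycle and growth arrest genes gave few calls. The clock output gene Dbp had levels of 1.86 and 0.08 without EPS and 1.94 and -0.20 with EPS, 4.40-fold lower. The clock list had a median of 0.11 of 17 after EPS and -0.27 without, and -0.12 after EPS under normexp. None of 27 cell cycle genes was called after EPS (4 were at least 2-fold lower without EPS), with medians of 0.06 after EPS and -0.36 without. The gap between time differences was positive for 25 of 27, with a median of 0.48, and at least 2-fold for 3. Cyclin A2 (Ccna2) had levels of -1.46 and -2.99 without EPS and -2.20 and -2.97 with EPS, so the arrays at 5 h were close and the unstimulated array at 0 min was highest. Btg2 and Gadd45g were the 2 calls of 19 p53 targets, 3.52-fold and 2.09-fold lower, the latter at -0.88 when centred on the median. None of 24 cholesterol and fatty acid synthesis genes was called. Of 18 interferon response genes Gbp6 and Ifit3 were 2.26-fold and 2.21-fold lower, and both were under 2-fold when centred on the median, Ifit3 at -0.96. Reference genes had a median of -0.17 of 16, and 0.01 when centred on the median, with none called.

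**Figure D4:**
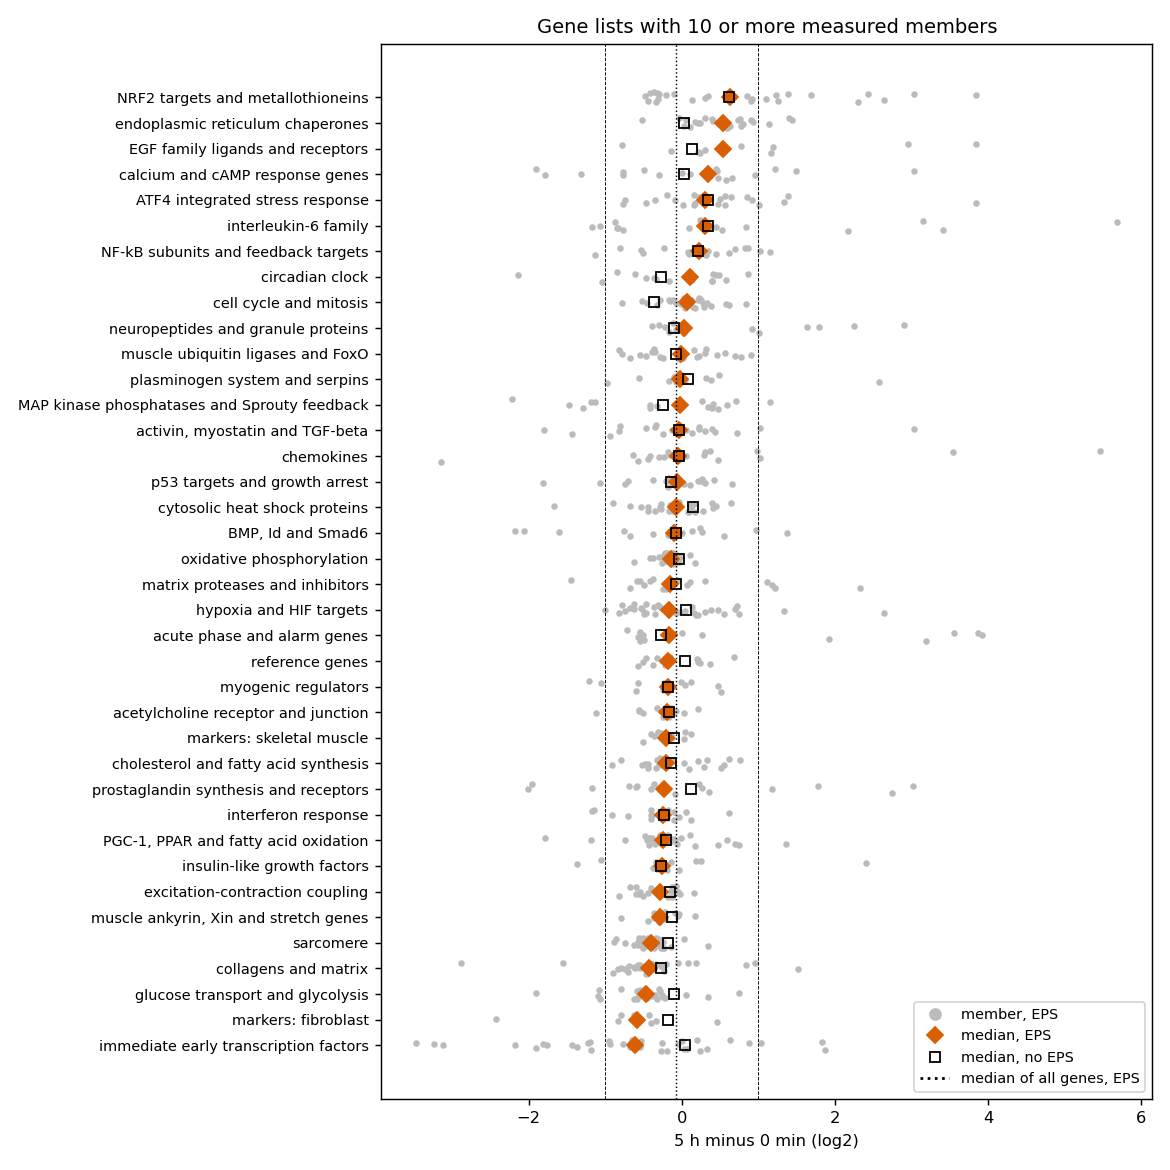
For each list of 10 or more measured genes, grey points are the members' differences after EPS (5 h minus 0 min, log2), orange diamonds their median and open squares the median without EPS; the dotted line is the median of all genes, -0.08, and dashed lines mark 2-fold. In the values plotted, NRF2 targets stand highest by median at 0.63 and the immediate early list lowest at -0.62.

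Much of the difference was also present over the same 5 h without EPS. The 2 comparisons share no array. In unstimulated tissue 322 of 18478 genes (1.74%) were at least 2-fold higher and 547 (2.96%) lower, 4.70% in all. At 4-fold the counts were 61 higher and 78 lower after EPS, and 51 and 53 without. Over the 18099 genes measured on all 4 arrays, 193 were higher in both, which is 45.8% of the 421 higher after EPS and 64.1% of the 301 higher without, and 294 were lower in both, 45.4% of 647 and 58.8% of 500. Of the 1068 genes called after EPS, 1001 (93.7%) had the same sign without EPS and 817 the same sign with a larger difference after EPS. The higher genes had a median difference of 1.27 after EPS and 0.94 without, and the lower genes -1.27 and -0.96. These medians and the count of 817 favour the EPS comparison by construction, since its calls chose the genes. Across genes, which are not independent replicates and share labelling and probes, both sets of time differences were correlated, with r = 0.78 (Pearson) and rho = 0.75 (Spearman). The spread over all measured genes was wider after EPS, with an interquartile range of 0.58 against 0.47.

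**Figure D5:**
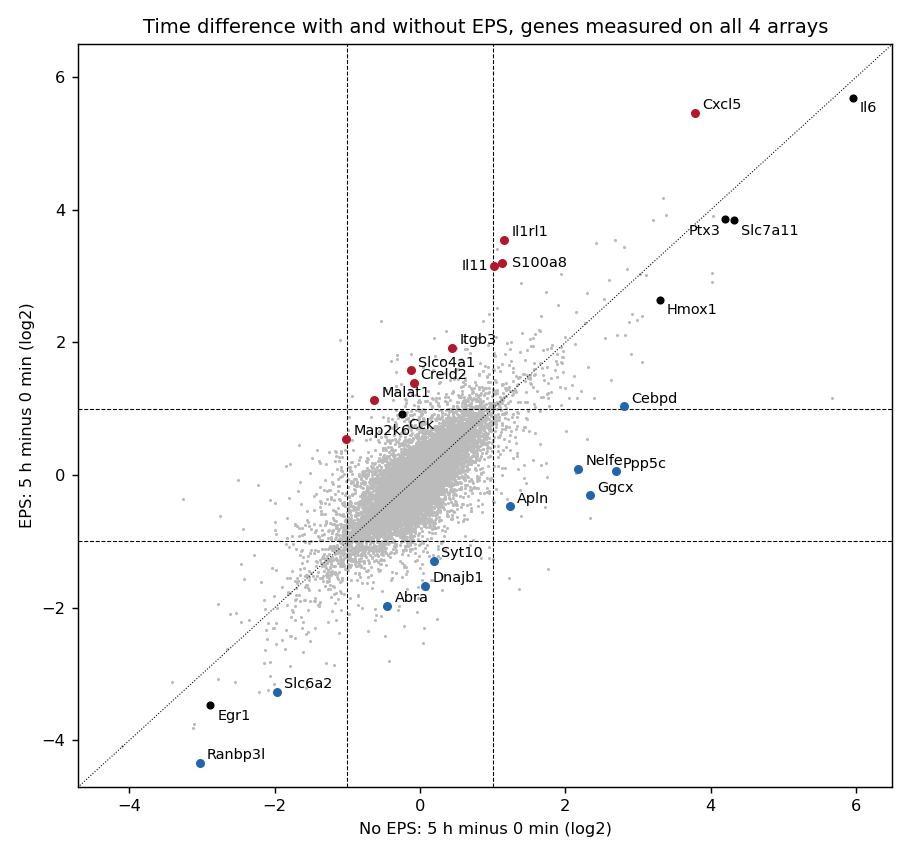
Each point is 1 of 18099 genes measured on all 4 arrays, with the 5 h minus 0 min difference (log2) without EPS on the horizontal and after EPS on the vertical axis; the dotted line marks equal differences and dashed lines 2-fold. Red and blue points are named genes far above and below that line, and black points mark Il6, Ptx3, Slc7a11, Hmox1, Egr1 and Cck for orientation.

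The gap between the time difference after EPS and that without was at least 2-fold upward for 181 genes and downward for 180, 1.99% together. The genes ranked here have a mean level over the 4 arrays not below the lower quartile and meet the other terms of the naming rule, which leaves out Lif, with its gap of 2.35, and other dim genes. Upward among them, after Il1rl1 (2.40), Il11 (2.13) and S100a8 (2.06), stood the anion transporter Slco4a1 (1.71), Cxcl5 (1.68), the kinase Map2k6 (1.56), Creld2 (1.48) and the integrin subunit Itgb3 (1.47). Itgb3 had levels of -0.20 and 0.25 without EPS and -0.69 and 1.22 with EPS. The nuclear RNA Malat1 (1.76) was low on the 0 min EPS array alone, at 0.03 against 1.06 to 1.69 elsewhere. Downward among them, Ggcx (-2.64), Ppp5c (-2.64) and Nelfe (-2.08) rested on the unstimulated 0 min array and differed by -0.30, 0.06 and 0.09 after EPS. Next stood Cebpd (-1.78), Dnajb1 (-1.75) and the vasoactive peptide apelin (Apln, -1.71), which had levels of -1.15 and 0.08 without EPS and -0.77 and -1.24 with EPS. Abra, an activator of Srf in striated muscle (-1.53), had levels of -1.11 and -1.56 without EPS and -0.43 and -2.40 with EPS, the highest at 0 min and the lowest at 5 h after stimulation. The synaptotagmin Syt10 (-1.49), Slc6a2 (-1.31) and Ranbp3l (-1.30) followed.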

How the data were processed

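Total RNA of 4 engineered muscle samples was labelled with Cy3 and hybridised to single-colour Agilent arrays of 1 slide, per the labels' protocols. Per the file headers, Agilent Feature Extraction 10.7.3.1 gave the deposited intensity of each spot, background-subtracted and detrended, and the deposited value table equalled them within 0.1% at every compared spot. From these, control spots and outlier-flagged spots (112 to 141 per array) were left out, spots of 1 probe were averaged as log2 values, and the 75th percentile of each array was subtracted. The brightest probe over all arrays stood for a gene. RefSeq accessions (assembly GRCm38.p6) named 26155 of 39429 probes, and for the other 13274 the name given in the files was used. Probe positions are those of the files, build mm9; promoters are RefSeq's on GRCm38.p6.

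With 1 array per group no p-value was computed, and 2-fold among genes well above background on both arrays took the place of a test; the code that counts it was tested on simulated data. A gene above background on 1 array has a lower bound, its level there against the higher of its own dim level and the lowest level of any probe well above background on the other array. Genes named were the 15 largest differences per direction (2-fold, mean level not below the lower quartile, no probe opposed, a proper gene name), 3 bounds per direction, list members at 2-fold with up to 4 others, Cck and its receptors, and the 10 largest gaps between time differences per direction; other members named were chosen after their values were seen. The members, the 43 lists and the rules were chosen with earlier results of these data known. Alternatives were normexp background correction (limma 3.58.1, R 4.3.3, offset 50), median centring, quantile normalization, another 3 filters for dim probes and the mean of a gene's probes. The number of arrays limits the precision. Computation used Python 3.11.15, numpy 2.4.6 and pandas 2.3.3. Some genes that these rules pick are not reported here.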

Additional observations from a re-analysis of the deposited data

Results flagged for a closer look

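A few results had opposite directions with and without EPS over the same 5 h; with 1 array per group none of these differences was tested. H2bfm, a histone gene, differed by -1.42 after EPS and by 1.76 without. Rasl11b, a small GTPase gene, differed by -1.56 after EPS and by 1.22 without. Ly6f, of the Ly6 family of surface proteins, differed by 2.03 after EPS and by -1.11 without. All 3 were dim, with levels of -5.97 to -3.43 over the 4 arrays. The prostaglandin list had a median of -0.23 after EPS and 0.13 without, and the circadian clock list one of 0.11 after EPS (-0.12 under normexp) and -0.27 without. For the prostaglandin list this concerns the median alone. Its members called after EPS had the same sign without EPS, and the median gap was -0.105. Other lists also had medians of opposite sign, such as the cell cycle list (0.06 after EPS and -0.36 without) and the immediate early list (-0.62 and 0.05).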

How the results depend on the processing

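With the normexp background correction, 257 genes were called higher and 343 lower at 5 h after EPS, 592 of these among the 1117 called above (53%), against 185 and 226 without EPS and 34 and 75 for the gap between time differences. Median centring gave 736 and 414 after EPS. Requiring a gene to be above background on at least 1 array gave 860 and 1318 after EPS, 746 and 1026 without and 852 and 988 for the gap. No filter gave 1396 and 2543, 1234 and 1880, and 1862 and 2117. Without a filter the median of the MAP kinase phosphatase list was 0.27 and that of endothelial markers -0.18, and adipocyte markers had -2.89 with at least 1 array above background; the cause was not tested. Quantile normalization, all 4 arrays above background and the mean of probes kept 939, 1068 and 1072 of the 1117 calls. No named gene called at 2-fold changed sign under any of these settings. Of the 290 named genes measured after EPS, 17 were no longer at 2-fold under normexp, 16 under median centring (with 20 newly above), 6 under quantile normalization and 4 with the mean of probes. No paired analysis was possible because each group has 1 array and the labels carry no replicate numbers; for the same reason no replicate could be left out. Signal over background limits the dim genes, whose spot error was 0.45 at the 95th percentile.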
